A study of Mus musculus with 22 samples.

Results

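The Igf2, H19 and Cdkn1c cluster is a group of imprinted genes on distal mouse chromosome 7, and its RNA was followed here in mouse chondrocytes and cartilage that had or lacked Dnmt1, a DNA methyltransferase gene. Its 7 members were chosen by name and position, as rows whose gene symbol was exactly Igf2, H19, Cdkn1c, Kcnq1ot1, Phlda2, Slc22a18 or Ascl2, out of 40756 genes with a row in any table. The whole-number cartilage table held all 7, and the culture tables held 5. H19 and Kcnq1ot1 were not analysed here in the cultures.

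The mice carried Dnmt1 alleles flanked by loxP sites (flox), with or without a Cre recombinase under the Prrx1 promoter, which is active in limb bud mesenchyme. Animals labelled flox served as controls, and animals labelled Prrx1-Cre;Dnmt1 flox/flox are called cKO. Primary chondrocytes from knee articular cartilage gave 3 control and 3 cKO libraries without treatment (day 0). A further 4 control and 4 cKO libraries came from such cultures after 3 days of bone morphogenetic protein 2 (BMP2, a growth factor that drives chondrocyte differentiation), at a concentration the labels give as 100 ng/µl. Collagenase-treated cartilage of mice at postnatal day 5 gave 4 control and 4 cKO libraries, of 2 males and 2 females each. The culture labels call the replicates biological, and beyond that no label ties a library to an animal, so the p-values measure the spread between these samples.

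An imprinted gene is transcribed mainly from the copy inherited from 1 parent, and DNA methylation laid down in the germ line marks which copy that is. Dnmt1 copies methylation onto new DNA strands at each cell division, imprint marks included. In this cluster Igf2 and the noncoding RNA H19 share an imprinting control region, methylated on the paternal copy, with Igf2 read from the paternal and H19 from the maternal chromosome. A second domain is governed by the long antisense RNA Kcnq1ot1, read from the paternal copy, and it includes the maternally read genes Cdkn1c, Phlda2, Slc22a18 and Ascl2. In the growth plate Igf2 is known as a growth factor and Cdkn1c as the cell cycle inhibitor p57 of chondrocytes leaving division. The tables count RNA per gene and do not separate the parental copies.

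On the build GRCm38, the cluster ran from H19 (chromosome 7, 142575529 to 142578143, minus strand) through Igf2 (142650766 to 142666816, minus strand) to Phlda2 (143501545 to 143503150, minus strand). Between them lay Ascl2 (142966829 to 142969264, minus strand), Kcnq1ot1 (143203458 to 143296549, minus strand), Cdkn1c (143458339 to 143461050, minus strand) and Slc22a18 (143473736 to 143499334, plus strand). The Igf2 start lay 88.7 kb from that of H19, and the start of Phlda2 925 kb away.

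Dnmt1 acts on cytosines in the dinucleotide CG, so 3 of the promoter windows of the members are shown with each CG in capitals. The window of Kcnq1ot1 is shown because the control region of its domain spans its start, and those of Igf2 and Phlda2 because both genes differed between the genotypes. Each holds 250 bases before to 50 bases after an annotated start, from RefSeq on GRCm38.p6, and all 3 are minus-strand sequences written 5′ to 3′.
Kcnq1ot1, chr7:143296498-143296797: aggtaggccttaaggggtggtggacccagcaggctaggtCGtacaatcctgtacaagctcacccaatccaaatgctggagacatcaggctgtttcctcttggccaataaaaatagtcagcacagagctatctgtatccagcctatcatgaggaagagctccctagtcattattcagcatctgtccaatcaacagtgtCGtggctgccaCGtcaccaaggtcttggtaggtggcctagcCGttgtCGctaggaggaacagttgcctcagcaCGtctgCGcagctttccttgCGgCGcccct
Igf2, chr7:142658755-142659054: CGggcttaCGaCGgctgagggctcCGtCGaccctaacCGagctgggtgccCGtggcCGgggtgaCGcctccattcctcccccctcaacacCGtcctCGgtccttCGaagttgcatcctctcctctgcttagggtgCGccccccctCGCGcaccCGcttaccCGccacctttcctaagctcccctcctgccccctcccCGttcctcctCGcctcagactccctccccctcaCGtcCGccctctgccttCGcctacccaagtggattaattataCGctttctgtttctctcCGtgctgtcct
Phlda2, chr7:143502475-143502774: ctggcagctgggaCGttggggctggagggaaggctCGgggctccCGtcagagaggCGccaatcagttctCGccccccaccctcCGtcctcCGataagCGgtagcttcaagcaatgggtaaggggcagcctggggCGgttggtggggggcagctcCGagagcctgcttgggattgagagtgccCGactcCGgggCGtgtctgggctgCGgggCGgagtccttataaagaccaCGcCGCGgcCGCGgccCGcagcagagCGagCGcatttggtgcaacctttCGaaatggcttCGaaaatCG
The Phlda2 window held 26 CG, more than 83.13% of 32851 promoter windows of the same length, and the Igf2 window held 24. The Kcnq1ot1 window held 9, close to the median of 7 over all windows. It also held 3 matches to CCAAT or its reverse complement ATTGG, a count reached by 3.37% of all windows, while 37.41% held at least 1. The other 3 Igf2 windows held 2, 14 and 7 CG, that of Ascl2 held 23 and that of Slc22a18 held 2. A match is a match of letters, and no methylation value enters the results below.

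Dnmt1 itself was lower in every cKO library than in every control library of the same source. It stood at 147 to 159 CPM (counts per library total, rescaled so that libraries compare) in day 0 controls against 25.7 to 31.3 CPM in day 0 cKO cultures, at 64.9 to 83.5 against 11.6 to 36.4 CPM at day 3, and at 34.5 to 48.6 against 11.8 to 14.3 CPM in whole-number counts of cartilage. In the estimated counts of cartilage the gap was smaller, at 44.1 to 62.5 against 26.5 to 33.4 CPM, with a log2 fold change of -0.78 instead of -1.66. The labels do not name the exons that Cre removes, so whether the 3′ counts of cartilage lie in the deleted part is not known. Day 0 libraries held 41749546 to 51741669 counts each, day 3 libraries 14434320 to 18918905 and cartilage libraries 1100198 to 1888896 whole-number counts. Markers of chondrocytes and of other lineages moved with genotype. The summed level of 10 chondrocyte markers, Col2a1 and Acan among them, was 133396 to 141206 CPM in day 0 controls and 47410 to 57996 CPM in cKO. At day 3 it was 92022 to 114076 CPM in controls against 16353, 12034, 17293 and 1209 CPM in cKO libraries 1 to 4, and in cartilage 65799 to 98894 against 30420 to 61927 CPM. The summed level of 10 skeletal muscle markers was 2.68 to 3.23 CPM in day 0 controls and 28.0 to 38.3 CPM in cKO, and 1.39 to 2.54 against 123 to 1418 CPM at day 3. Myf5 and Pax7 were at 0 in all control cultures, and Myod1 at 0 in those of day 0. In cKO cultures Myl1 and Pax7 were at 0 in every library of day 0, and Myf5 in every library of day 3. In cartilage, where 8 of the 10 muscle markers had a row, their sum was 9.78 to 14.5 against 11.2 to 45.5 CPM. The summed level of 5 hypertrophic markers was 1262 to 1308 against 672 to 765 CPM at day 0, 243 to 489 against 928 to 2661 CPM at day 3, and 639.9 to 1398 against 81.8 to 792 CPM in cartilage, where 4 of the 5 were called lower. At day 3 Col10a1, Ibsp and Mmp13 were called higher, whereas Panx3 (-2.37 on the log2 scale) and Ihh (-2.88) were called lower. The summed level of 4 adipocyte markers was 0.86 to 1.096 against 2.26 to 4.28 CPM at day 0 and 1.39 to 2.88 against 27.3 to 42.0 CPM at day 3. Adipoq was at 0 in all control cultures, and Lep in all cultures of both genotypes. The summed level of 4 osteoclast markers was 158 to 163 against 72.8 to 86.8 CPM at day 0, and 114 to 142 against 99.7 to 377 CPM at day 3. At day 0 Ctsk was called lower (log2 fold change -1.005) and Mmp9 higher (1.15), and at day 3 Acp5 was called higher (0.64). In cartilage the sum was 124 to 451.5 against 57.9 to 118 CPM. All 3 osteoclast markers tested there were called lower, with Mmp9 at -4.59 and Acp5 at -3.42 on the log2 scale. The 2 tested blood markers, Hbb-bs (-1.92) and Hba-a1 (-1.90), were also called lower in cartilage, and both were at 0 in all cultures. The other blood markers, Cd68 and Ptprc, did not enter that test. They were called higher in day 0 cKO cultures (1.13 and 1.88), as was Cd68 at day 3 (3.09). For 6 fibroblast and perichondrium markers the sum was 2671 to 4209 against 2030 to 2221 CPM at day 0. It was 6497 to 8249 against 9109 to 10628 CPM at day 3, the opposite direction, and 30599 to 60784 against 15312 to 38294 CPM in cartilage. For 4 endothelial markers it was 1.04 to 1.26 against 1.80 to 1.98 CPM at day 0, 0.31 to 1.01 against 1.31 to 1.52 CPM at day 3, and 59.3 to 109.7 against 36.2 to 84.0 CPM in cartilage. The part of these shifts in the results below was not tested.

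Igf2, the paternally read growth factor, was among the most abundant transcripts of day 0 control chondrocytes and stood more than 6-fold lower in cKO cultures. The control libraries held 12006, 12415 and 12787 CPM, and the cKO libraries 1779, 2279.5 and 1922 CPM. Every cKO library lay far below every control library, and the spread within each genotype was small beside the gap. Control cultures averaged 12403 ± 391 CPM and cKO cultures 1994 ± 258 CPM (SD, n = 3). The log2 fold change was -2.64 with a standard error (SE) of 0.11, and the adjusted p by the quasi-likelihood test of edgeR was 1.2e-07. Per kilobase of exon, Igf2 ranked 6th of 34582 genes in day 0 controls and 83rd in day 0 cKO cultures. In bulk RNA, fewer cells that express a gene and less RNA per cell cannot be told apart.

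After 3 days of BMP2 Igf2 was again lower in cKO, with a wide spread. The control libraries held 1722, 2974, 2069 and 4022 CPM, and the cKO libraries 926, 816, 1531 and 131 CPM. The groups did not overlap, and cKO library 4, which also had the lowest chondrocyte marker sum, held the lowest level. The log2 fold change was -1.66 (SE 0.62), with an edgeR adjusted p of 0.0521 that missed the threshold of 0.05. Without cKO library 4 the log2 fold change was -1.31 and the adjusted p 0.00689, and without cKO library 3 they were -2.11 and 0.0322. Over all alternative analyses the adjusted p ran from 0.00689 to 0.126, and 5 of them passed the threshold, among them DESeq2 (0.0292).

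In cartilage the level of Igf2 depended on which of the 2 deposited tables was read. The estimated counts gave 11755, 10069.6, 10213 and 8727 CPM in controls and 3995, 3365, 2958 and 3925 CPM in cKO, without overlap. The log2 fold change there was -1.51 (SE 0.14), with an edgeR adjusted p of 1.11e-05. The whole-number counts gave 41.3, 20.5, 16.5 and 20.1 CPM in controls and 14.3, 3.50, 12.5 and 12.1 CPM in cKO, also without overlap. On this scale, where single libraries held 4 to 55 counts of Igf2, the log2 fold change was -1.20 (SE 0.36) with an edgeR adjusted p of 0.0601, and it was -0.83 (0.201) without control library 1 and -0.83 (0.107) without cKO library 2. Its adjusted p over all alternatives ran from 1.11e-05 to 0.201.
A second gene model on the same strand, Gm49394, shares 3596 of the 5723 exonic bases of Igf2, and 997 of the last 1000, where a 3′ method such as that used for cartilage places its reads. The whole-number table held no row under the symbol Gm49394. Whether reads shared by both models were left out of that table was not tested. In the estimated counts of cartilage Gm49394 held 0 to 20 counts per library, and adding them to Igf2 left the log2 fold change at -1.51.

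**Figure D1:**
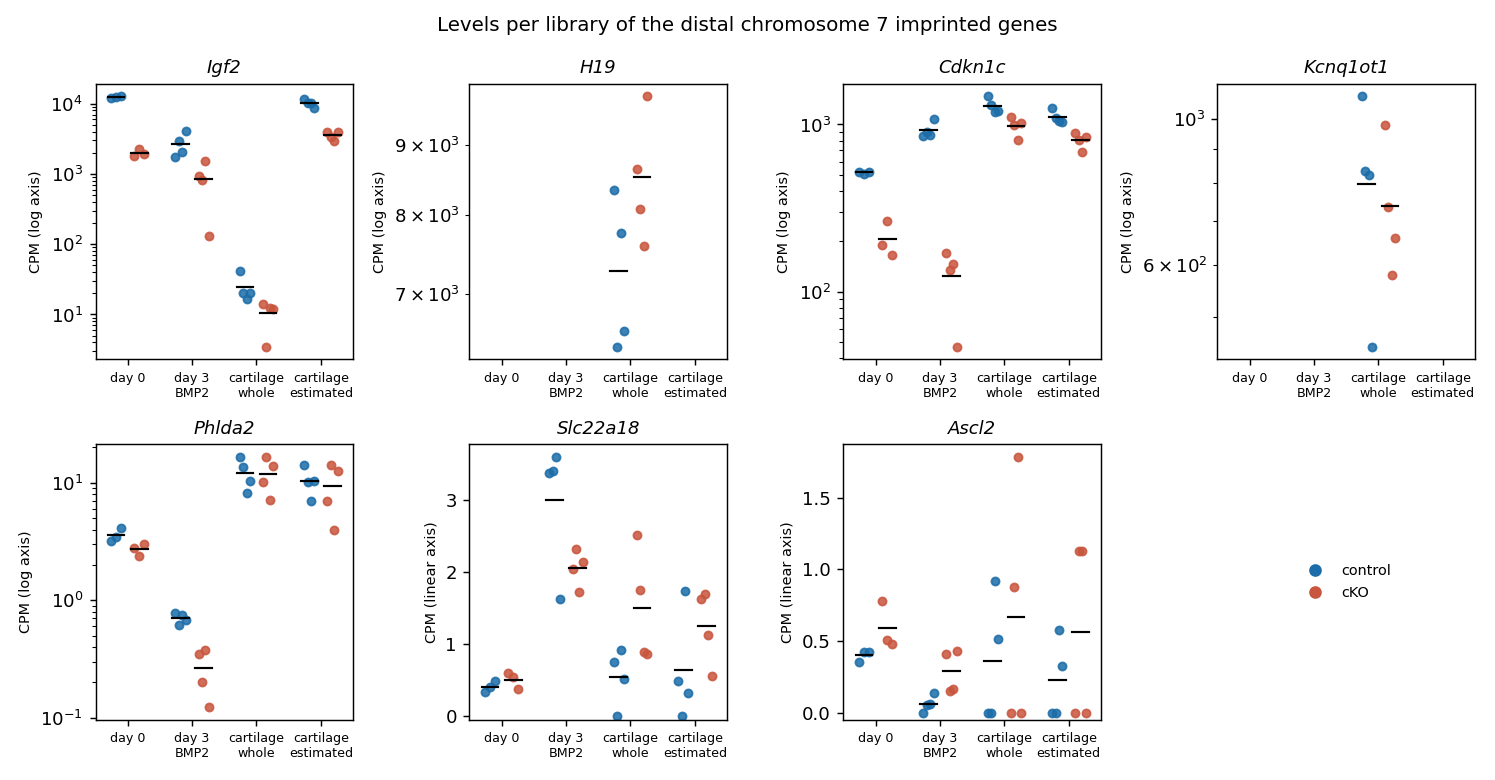
Level of each of the 7 genes in every library, in CPM, for day 0 cultures, day 3 cultures and both cartilage tables. Points are libraries (3 per genotype at day 0, 4 elsewhere), black bars are means, the y axis is logarithmic except for Slc22a18 and Ascl2, and an empty position has no row in that table. Igf2 in cKO lies below control in each setting, and its 2 cartilage tables differ in level by over 2 orders of magnitude.

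H19, the maternally read noncoding RNA next to Igf2, was abundant in cartilage and did not differ detectably between the genotypes. The control libraries held 8341, 6406, 7757 and 6580 CPM, and the cKO libraries 8642, 8081, 7589 and 9764 CPM. The groups overlapped, and the highest library was a cKO library. The log2 fold change was 0.23 (SE 0.18), with an edgeR adjusted p of 0.495. In the same libraries the estimated counts put Igf2 lower in cKO, as given above.

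Cdkn1c, which encodes the cyclin-dependent kinase inhibitor p57, was lower in cKO cultures at both times. At day 0 the control libraries held 522, 507 and 523 CPM and the cKO libraries 190, 263.5 and 166 CPM. No cKO library reached the lowest control, with -1.33 on the log2 scale (SE 0.14, edgeR adjusted p 3.07e-05). At day 3 the controls held 850, 907.5, 866 and 1074 CPM and the cKO libraries 171, 135, 146 and 47.1 CPM. The gap was wider than at day 0, with a log2 fold change of -2.89 and an SE of 0.36 (edgeR adjusted p 0.000318), and cKO library 4 was again the lowest. The difference between these 2 genotype effects was -1.58 (SE 0.45) on the log2 scale, with an edgeR adjusted p of 0.0291 in a fit of all 14 cultures. That call was lost, at adjusted p of 0.0512 to 0.0813, when any 1 of the 3 day 0 control libraries, day 0 cKO library 1 or 2, or day 3 control library 4 was left out.

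In cartilage Cdkn1c held 1477, 1313, 1182 and 1205 CPM in the control libraries and 1106, 995, 805.5 and 1025 CPM in the cKO libraries of the whole-number table. The groups did not overlap, but the log2 fold change of -0.40 (SE 0.14) had an edgeR adjusted p of 0.104. In the estimated counts it was -0.46 (SE 0.11) with an adjusted p of 0.0286, and over all alternatives the adjusted p ran from 0.0286 to 0.252. An antisense gene, Gm44732, overlaps 30.65% of the exonic bases of Cdkn1c. Whether counting used the strand is not given in the sources used here, so reads of the 2 genes may not be separated.

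Kcnq1ot1, the antisense RNA that silences its domain on the paternal copy, showed no detectable genotype effect in cartilage. The control libraries held 1084, 834, 824 and 451 CPM and the cKO libraries 981, 736, 579 and 659 CPM. The lowest and the highest library were both controls, and the log2 fold change was -0.10 (SE 0.18, edgeR adjusted p 0.79). Leaving out single libraries moved it between -0.28 and 0.07.

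Phlda2, a maternally read gene known for restraining placental growth, was expressed at a low level and was lower in cKO cultures. At day 0 the controls held 3.17, 3.45 and 4.10 CPM and the cKO libraries 2.81, 2.38 and 2.99 CPM, groups that lay close but did not overlap. The log2 fold change was -0.39 with an SE of 0.14, and its call (edgeR adjusted p 0.0364) was lost in 7 of 12 alternatives, where adjusted p ran from 0.0537 to 0.181. The 7 were DESeq2, library totals without TMM factors, the fit of all 14 cultures, and the omission of control library 2 or 3 or of cKO library 1 or 2. At day 3 the controls held 10 to 12 counts each and the cKO libraries 6, 4, 7 and 2. All 4 cKO libraries lay below the controls, and the log2 fold change of -1.38, with an SE of 0.36 and an edgeR adjusted p of 0.0123, kept its call in all 14 alternatives. No cKO library held 10 counts, so Phlda2 passed the filter for testing there only through the controls. Its p at day 3 is therefore not read as support for a lower level. In cartilage the controls ranged from 8.26 to 16.5 CPM and the cKO libraries from 7.14 to 16.6 CPM, and the log2 fold change was -0.04 with an SE of 0.29 (edgeR adjusted p 0.953).

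Slc22a18, a maternally read member of the organic cation transporter family, had few counts at day 0. It held 16, 20 and 22 counts in controls and 26, 25 and 20 in cKO, and the log2 fold change was 0.29 with an SE of 0.29 (edgeR adjusted p 0.395). At day 3 the controls held 3.37, 3.40, 3.59 and 1.62 CPM and the cKO libraries 2.04, 2.32, 1.73 and 2.14 CPM. On the log2 scale the difference was -0.54 (SE 0.27, edgeR adjusted p 0.125), and control library 4 lay below every other library. Without that library it was -0.75 with an adjusted p of 0.0165, the lowest of a range up to 0.251 over all alternatives. In cartilage no library held more than 3 counts, so no difference was detectable at that depth.

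Ascl2, a maternally read transcription factor needed in the trophoblast, was barely detected. The day 0 controls held 17, 21 and 19 counts and the cKO libraries 34, 23 and 26, so each cKO library was above each control. Its log2 fold change was 0.54 (SE 0.28), and its edgeR adjusted p of 0.116 missed the threshold. At day 3, where Ascl2 was too low to enter the test, the controls held 0, 1, 1 and 2 counts and the cKO libraries 7, 3, 3 and 7. The ratio of summed counts per library size was 4.39, with an exact 95% Poisson interval of 1.47 to 17.7 that covers counting error only. All 8 cartilage libraries held 0 to 2 counts.

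Counted together, 3 of the 5 members tested at day 0 were lower in cKO and none was higher, beside 64.5% of all 15530 genes called and 31.6% called lower. With so many genes called, nothing particular to the cluster is read from this count. At day 3, 2 of 4 tested members were lower, beside 48.1% of all genes called and 22.6% called lower. Of the 2, Phlda2 passed the filter for testing only through the controls, so nothing particular to the cluster is read from this count either. Without cKO library 4 the count was 3 of 4, with Igf2 added, beside 55.1% of all genes called in that fit. In cartilage, by whole-number counts, 0 of 5 tested members were called by edgeR or by DESeq2, beside 6.19% of all genes called and 3.04% called lower, and 2 had an unadjusted p under 0.05. In the estimated counts 2 of 3 were called lower, Igf2 and Cdkn1c, beside 6.74% of all genes called and 3.18% called lower. All cartilage controls were in library pool 1 and all cKO libraries in pool 2, so pool and genotype cannot be told apart there. Of members whose groups did not overlap, Igf2, Cdkn1c and Phlda2 at day 0 and again at day 3 had cKO below control, as had 34.4% and 22.7% of all genes, and in cartilage Igf2 and Cdkn1c had, as had 6.4%, or 7.3% in the estimated counts. Ascl2 at day 0 had cKO above control, as had 35.9% of all genes. At day 3 its cKO counts also lay above control, but it was below the filter for testing there. The share of all genes that did so at day 3 is not given here, so nothing is read from it. Scaling by library totals without TMM factors moved the median of all genes to 0.12 at day 0, from 0.01, and the share of higher among called genes from 51.1% to 63.6%, in cartilage from 50.9% to 64.9% and in the control change from day 0 to day 3 from 49.4% to 61.5%.

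**Figure D2:**
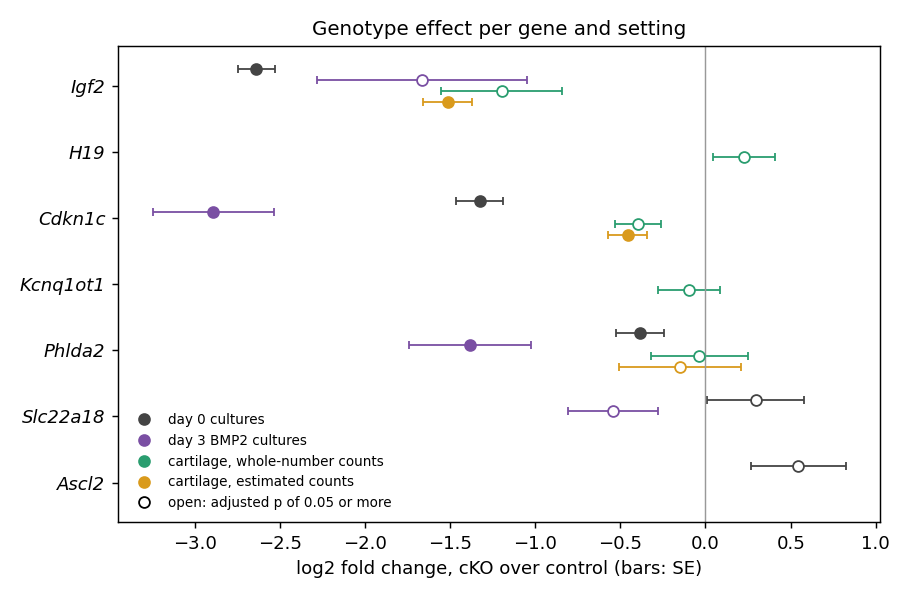
Log2 fold change of cKO over control for each gene in each setting, with SE as bars. Filled points passed an edgeR adjusted p of 0.05 and open points did not; Igf2 and Cdkn1c lie left of 0 in all 4 settings, whereas H19 and Kcnq1ot1 have cartilage values near 0.

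The genotype effect was also compared between the sexes in cartilage, in 4 groups of 2 libraries. By edgeR and by DESeq2, 0 of the 5 tested members differed, with 0 at an unadjusted p under 0.05, beside 0.0103% of all genes called. The difference between the female and the male effect was 1.19 (SE 0.68) for Igf2 in the whole-number table. It was 2.52 without cKO library 1, 0.51 without cKO library 2, 0.58 without control library 1 and 0.10 in the estimated counts. It was within 0.33 of 0 on the log2 scale for H19, Cdkn1c, Kcnq1ot1 and Phlda2.

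Between day 0 and day 3, Igf2 fell in both genotypes. Day, BMP2 and count table changed together and cannot be told apart. In a common scaling of the 14 cultures Igf2 went from 12925 ± 416 to 2627 ± 1006 CPM in controls (SD, n = 3 and 4), a log2 change of -2.30 (SE 0.55, edgeR adjusted p 0.00289). In cKO it went from 2082 ± 269 to 824 ± 556 CPM, a log2 change of -1.34 (SE 0.54, edgeR adjusted p 0.0444). The cKO change lost its call in 12 of 19 alternatives, with adjusted p from 0.0525 to 0.107, and these included the omission of any day 0 library, of day 3 control library 2 or 3 and of day 3 cKO library 1 or 2. The genotype effects of the 2 days differed by 0.96 (SE 0.76, edgeR adjusted p 0.433), by 1.32 with an adjusted p of 0.02 without day 3 cKO library 4, and by 0.50 (0.681) without day 3 cKO library 3, within a range of 0.02 to 0.681 over the alternatives. In order of level, day 0 control was highest and day 3 cKO lowest, while day 3 control (1680 to 3923 CPM) and day 0 cKO (1857 to 2379 CPM) overlapped.

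Cdkn1c fell in cKO cultures, while the control change pointed upward and missed the threshold. Controls went from 539 ± 9.93 to 900.1 ± 101 CPM, a log2 change of 0.74 (SE 0.32) with an edgeR adjusted p of 0.0633. It passed in 4 alternatives, within a range of 0.000266 to 0.141. The cKO cultures fell from 216 ± 52.8 to 121 ± 52.7 CPM, a log2 change of -0.84 (SE 0.31, edgeR adjusted p 0.0319), which was not called without day 0 cKO library 1 (0.0509) or 2 (0.141), without TMM factors (0.0672) or with a replicate block (0.0611), within a range of 0.00351 to 0.141. None of the 4 groups overlapped another, with day 3 control on top, followed by day 0 control, day 0 cKO and day 3 cKO. The difference between the 2 changes is the -1.58 given above.

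Phlda2 fell in both genotypes, from 3.72 ± 0.50 to 0.68 ± 0.07 CPM in controls and from 2.85 ± 0.33 to 0.25 ± 0.12 CPM in cKO. The log2 changes were -2.44 (SE 0.24, edgeR adjusted p 2.6e-06) and -3.46 (SE 0.26, edgeR adjusted p 3.51e-07), and their difference of -1.02 had an adjusted p of 0.0758. Slc22a18 rose in both, from 0.43 ± 0.08 to 2.92 ± 0.89 CPM in controls and from 0.53 ± 0.12 to 1.98 ± 0.25 CPM in cKO. Its log2 changes were 2.77 (SE 0.30, edgeR adjusted p 6.3e-06) and 1.91 (SE 0.29, edgeR adjusted p 9.62e-05), with a difference of -0.86 (adjusted p 0.166). In controls 1 member rose and 2 fell, beside 56.9% of all genes called, 28.1% higher and 28.8% lower. In cKO 1 rose and 3 fell, beside 62.2% of all genes called, 32.4% higher and 29.8% lower. The interaction called 1 of 4 members, with a lower effect, beside 16.8% of all genes called and 6.89% called with a lower effect.

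**Figure D3:**
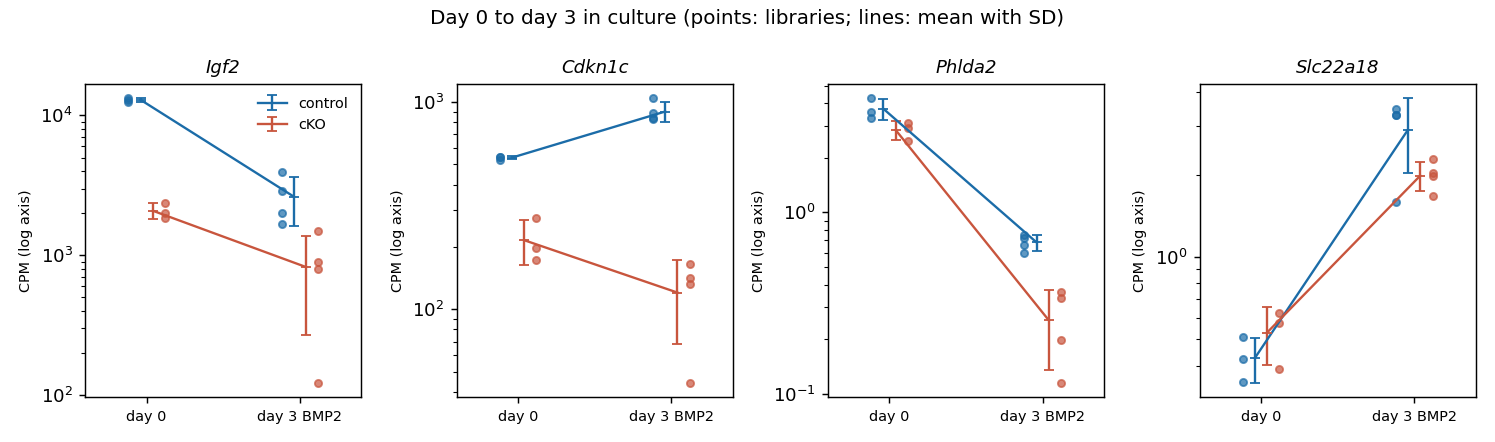
CPM of 4 genes in the 14 cultures at day 0 and day 3, on logarithmic axes. Points are libraries, and lines join group means with SD bars; the control and cKO lines of Cdkn1c run in opposite directions while those of Igf2 and Phlda2 both fall and those of Slc22a18 both rise.

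The neighbours of the cluster did not follow a single direction. Of 12 other genes of the region with enough counts at day 0, 7 were higher and 2 lower in cKO by edgeR, and at day 3 it was 2 and 2. Of all genes, 64.5% were called at day 0 (31.6% lower) and 48.1% at day 3 (22.6% lower). The clearest rise was in Tnfrsf26, one of a row of tumour necrosis factor receptor genes, which held 0.42, 0.41 and 0.51 CPM in day 0 controls and 5.43, 4.56 and 6.31 CPM in cKO. At day 3 it held 0.20 to 0.63 CPM in controls and 10.4, 9.54, 11.2 and 21.4 CPM in cKO. The log2 fold change was 3.61 at day 0 (SE 0.18, edgeR adjusted p 3.93e-07) and 5.02 at day 3 (SE 0.40, edgeR adjusted p 3.92e-05). No day 3 control held 10 counts of Tnfrsf26, which passed the filter for testing there only through the cKO libraries. Its neighbour Tnfrsf22 rose by 1.12 at day 0 and stood at 0.20 at day 3 (edgeR adjusted p 0.278), effects that differed by -0.94 (SE 0.18, edgeR adjusted p 0.00483). Tnfrsf23, further along the row, rose by 1.12 and 1.23 on the log2 scale. Trpm5, a cation channel gene in the Kcnq1ot1 domain, was lower in cKO cultures, with log2 fold changes of -0.88 at day 0 and -2.56 at day 3. Its cartilage libraries held 3.41 to 9.01 CPM in controls and 8.61 to 13.4 CPM in cKO, and the log2 fold change of 1.07 had an edgeR adjusted p of 0.0958. In cartilage 0 of 9 tested neighbours were called by edgeR or DESeq2, with 1 at an unadjusted p under 0.05, beside 6.19% of all genes called by edgeR. Tnfrsf23 stood there at -0.05 (SE 0.25).

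**Figure D4:**
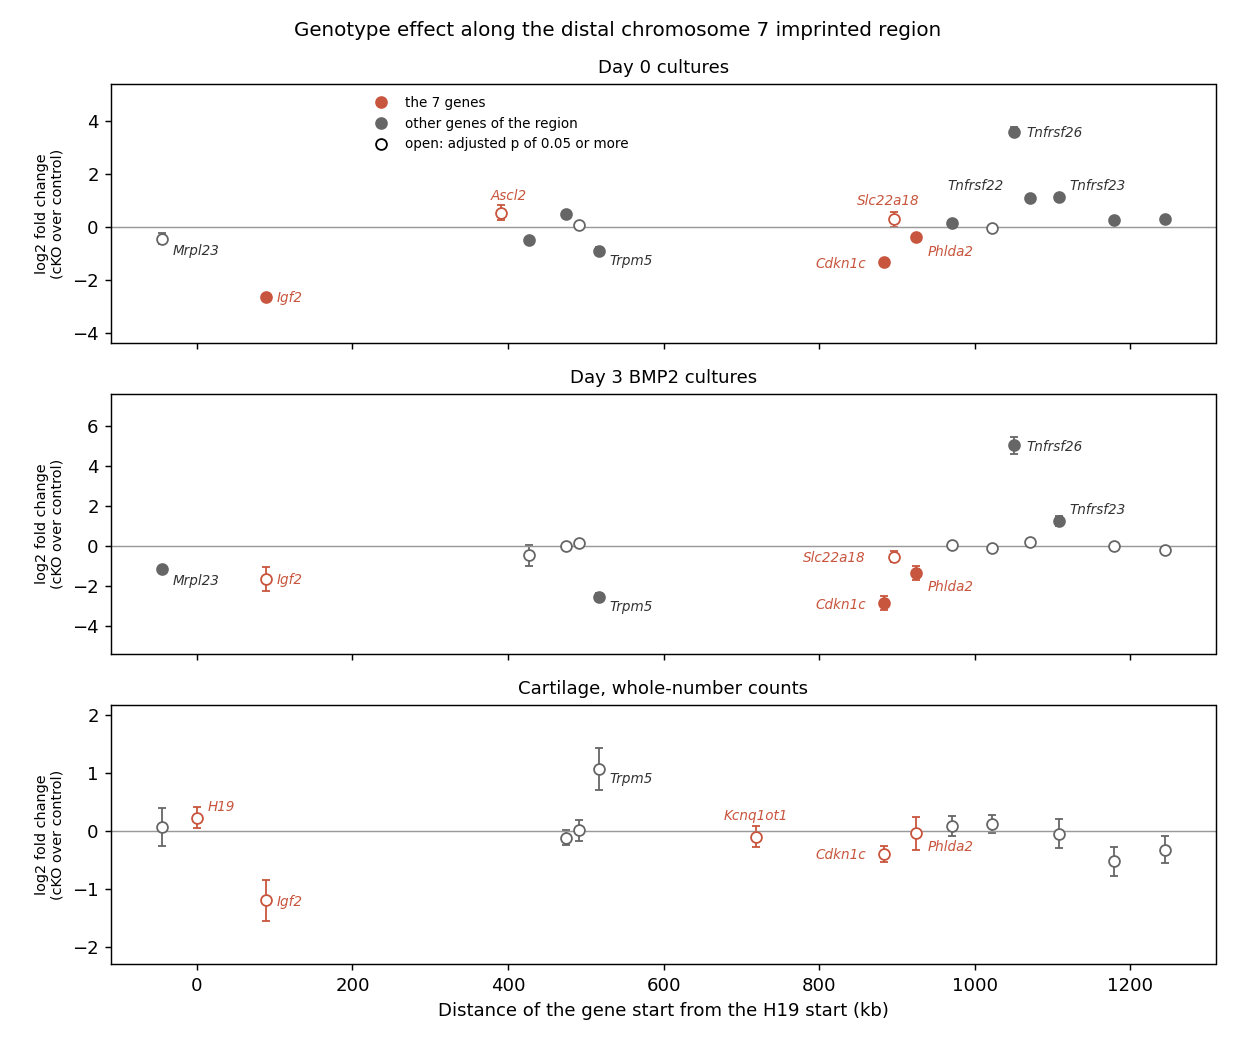
Log2 fold change of cKO over control against the distance of each gene start from the H19 start in kb, for day 0, day 3 and cartilage, with SE as bars. Red marks the 7 genes, grey the other tested genes of the region and open points an adjusted p of 0.05 or more; genes called lower (Igf2, Cdkn1c) and higher (Tnfrsf26) occur in 1 stretch of chromosome.

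Genes of the IGF2 pathway were taken from a list of 15. At day 0, 5 were higher and 5 lower in cKO, at day 3, 4 and 4, and in cartilage 3 and 1 of 14 tested. Over all genes, 64.5%, 48.1% and 6.19% were called, and 31.6%, 22.6% and 3.04% were called lower. Igf2r, the receptor that clears IGF2 and is itself imprinted in mice, fell in each setting. It held 853 to 928 CPM in day 0 controls and 350 to 388 CPM in cKO (log2 fold change -1.27, SE 0.05), 806 to 1015 against 367 to 477 CPM at day 3 (-1.09, SE 0.12), and 402 to 492 against 249.8 to 322 CPM in cartilage (-0.65, SE 0.13). The edgeR adjusted p was 1.11e-07, 0.000177 and 0.00705, and the groups were apart in all 3. Igf2bp1, which encodes a fetal RNA-binding protein that binds Igf2 messenger RNA, rose in the cultures, with log2 fold changes of 2.12 and 0.54. It stood at 7.27 to 7.79 CPM in day 0 controls and 31.1 to 36.3 CPM in cKO, and at 3.00 to 9.17 against 12.2 to 19.8 CPM in cartilage. The cartilage controls held 4, 5, 10 and 11 counts and the cKO libraries 20, 14, 18 and 23. With controls near or under the filter's 10 counts, Igf2bp1 passed the filter for testing there through the cKO libraries. It is among the 3 higher calls in cartilage, but its log2 fold change of 1.59 there is not read as support for a rise. Insr, the insulin receptor, fell by 1.005 at day 0 and by 0.80 at day 3. The signalling receptor Igf1r was not called, at 0.06 and 0.54 in the cultures and -0.44 in cartilage, although it was called in the estimated counts of cartilage (-0.53, edgeR adjusted p 0.0343). Igf2bp2 and Pappa2 were called higher in whole-number cartilage counts (1.0 and 0.85) but not in the estimated counts, where the edgeR adjusted p was 0.24 and 0.242. Pappa2, which encodes a protease that cleaves IGF-binding proteins, went the other way at day 0, with 3.55 to 7.93 CPM in controls and 0.742 to 1.197 CPM in cKO. That was the largest fall in the list at day 0, at -2.44 on the log2 scale with an SE of 0.34 (edgeR adjusted p 0.000179), and at day 3 it was -0.63 (edgeR adjusted p 0.12).

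Among 15 cell cycle genes that act with or beside Cdkn1c, 8 were higher and 3 lower at day 0, 2 and 3 at day 3, and 2 and 1 of 12 in cartilage. The shares of all genes called were 64.5%, 48.1% and 6.19%. Ccnd1, which encodes cyclin D1, rose at day 0 (log2 fold change 1.51, SE 0.04, edgeR adjusted p 1.48e-08) and in cartilage (1.17, SE 0.14, edgeR adjusted p 5.59e-05), and was at 0.01 (SE 0.12) at day 3. Among the closest relatives of Cdkn1c, Cdkn1a, encoding p21, rose by 1.004 at day 0 and was at -0.05 at day 3, and Cdkn1b, encoding p27, was not called in any setting, at -0.08, -0.28 and 0.03. Cdkn2a rose by 2.56 at day 0 and by 1.07 at day 3, where its edgeR adjusted p was 0.0499.

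Imprinted genes elsewhere in the genome that are known to be coexpressed with the cluster were mostly lower in cKO cultures. Of 12 such genes 11 were tested at day 0, and 10 were lower and none higher (median log2 fold change -0.41, beside 0.01 over all genes), and at day 3, 7 were lower and 1 higher (median -0.91). Of all genes, 31.6% were called lower at day 0, 22.6% at day 3 and 3.04% in cartilage. Without TMM factors 8 of these imprinted genes were lower and 1 higher at day 0, and 5 and 1 at day 3. Grb10, an adaptor that restrains insulin and IGF signalling, fell from 1042 to 1051.5 CPM in day 0 controls to 459.7 to 525 CPM in cKO (log2 fold change -1.09, SE 0.05), and its log2 fold change at day 3 was -1.565. Peg3 fell by 0.96 at day 0 and Plagl1, a zinc finger regulator of this network, had log2 fold changes of -0.34 and -1.70. At day 3 Peg3 fell by 2.54. In cartilage only Grb10 of 12 was called, at -0.64 (SE 0.13, edgeR adjusted p 0.00762), while Peg3 and Plagl1 stood at 0.09 and 0.24. The estimated counts also called Slc38a4 lower there (-1.28, edgeR adjusted p 0.0275).

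Of 13 tested genes that read or keep imprints, 5 were higher and 4 lower at day 0, 1 and 5 at day 3, and in cartilage Dnmt1 alone of 9 was called. Beside them, 64.5%, 48.1% and 6.19% of all genes were called. Uhrf1, the partner that brings Dnmt1 to new DNA, rose by 0.86 at day 0 and held the same value at day 3, where its edgeR adjusted p was 0.115. Zfp57, which protects methylated imprints, rose by 0.43 at day 0 and was at -0.31 at day 3 (adjusted p 0.279). Dnmt3l, a cofactor of germ-line DNA methylation, rose from 0.44 to 0.52 CPM in day 0 controls to 0.77 to 0.87 CPM in cKO (log2 fold change 0.79, edgeR adjusted p 0.00928). At day 3 it was at or under 3 counts in all 4 controls (0 to 0.056 CPM), held 1.89 to 3.00 CPM in cKO, and was the gene called higher (edgeR adjusted p 4.49e-05). Dnmt3l passed the filter for testing there only through the cKO libraries. Tet1, an enzyme that oxidises methylated cytosine, had log2 fold changes of -1.08 at day 0 and -3.035 at day 3, both called, and was at -0.40 in cartilage (edgeR adjusted p 0.281). Phlda1 and Phlda3, relatives of Phlda2, rose by 1.09 and 0.98 at day 0 and by 1.51 and 0.33 at day 3, the opposite direction to Phlda2, and in cartilage neither was called (0.23 and 0.53). With day 3 cKO library 4 left out, a check added after the data were seen, the day 3 counts of higher and lower calls were 2 and 3 for the neighbours, 6 and 4 for the IGF2 pathway, 2 and 3 for the cell cycle genes, 1 and 7 for the coexpressed imprinted genes and 2 and 5 for the imprint keepers. That fit called 55.1% of all genes.

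Over the 14 cultures, the genes whose log2 CPM followed each member most closely were found by Pearson correlation among 14909 genes. The libraries share genotype and day groups, so these values describe the pattern and carry no p. Igf2 was most alike to Mdm4 (r = 0.988), Ooep (0.982) and Osgin2 (0.980), and Cdkn1c to Ldlrad3 (0.994), Itga10 (0.994) and Rbbp7 (0.990). Phlda2 was most alike to Heatr5a (0.993), Deptor (0.987) and Ctnnal1 (0.986), and Slc22a18 to Tmem229b (0.979), Ldb1 (0.977) and Dcaf5 (0.973). Itga10, a collagen receptor subunit of chondrocytes, had genotype effects of -1.38 and -2.85 at days 0 and 3, beside -1.33 and -2.89 for Cdkn1c. Since Itga10 was chosen by correlation over these same libraries, the likeness of the effects is no separate result. Correlations over 0.95 were reached by 53 genes for Igf2 and 115 for Cdkn1c.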

How the data were processed

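For the cultures the authors deposited expected (estimated) counts per gene, which were rounded to whole numbers here. For cartilage the authors deposited whole-number counts per gene, used as the main values, and estimated counts, used as an alternative. The submitters' processing notes name GRCm38 for all samples, and for cartilage UMI-tools 1.1.1, Trim Galore 0.6.7, HISAT2 2.2.1, featureCounts 2.0.1 and DESeq2 1.34.0, without saying which tool made which table. Culture libraries were stranded and made from total RNA, and cartilage libraries were barcoded 3′ libraries (BRB-seq), per the labels' protocols. No per-sample column was left unused.

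Genes were tested by quasi-likelihood (edgeR 4.0.16, R 4.3.3, TMM factors, filterByExpr at 10 counts and 15 in total, adjusted p by Benjamini-Hochberg over every gene tested, called under 0.05). Cartilage fits had sex as a covariate. CPM are TMM-scaled, and SE is the absolute log2 fold change over the square root of F. DESeq2 1.42.0, other scalings, no filter, a replicate block and leaving out each library were alternatives. The fits were tested on simulated data. Positions came from GENCODE M21, which matched 34582 of 34866 culture identifiers. The members and lists were chosen with earlier results of these data known. Named were all members, a selection of the listed genes that were called or needed for their role, and the 3 genes most correlated with each tested member (log2 CPM, prior count 2).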

Additional observations from a re-analysis of the deposited data

Results flagged for a closer look

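The genotype effect on Cdkn1c differed between day 3 and day 0 by -1.58 on the log2 scale (edgeR adjusted p 0.0291 in the fit of all 14 cultures), with cKO lower than control in every library of both days. That call was kept in 8 of 14 fits with 1 library left out, where the edgeR adjusted p ran from 0.000327 to 0.0813.

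In 34 sets of 4 libraries (each member, genotype and table), 2 held a library separated from the other 3 by more than the 95% critical value of Dixon's test, and chance gives about 1 in 20. Slc22a18 was lowest in day 3 control library 4, at 1.62 CPM beside 3.37 to 3.59 CPM in the other controls. Igf2 in the whole-number cartilage table was highest in control library 1, at 41.3 CPM beside 16.5 to 20.5 CPM in the other controls.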

How the results depend on the processing

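At day 0 Igf2 and Cdkn1c kept direction and call in all 12 alternatives, and at day 3 Cdkn1c and Phlda2 in all 14. At day 3 Phlda2 passed the count filter only through the controls. The count of members called was 2 to 3 at both days when single libraries were left out (3 and 2 with all libraries). In cartilage it was 0, and 1 without the low-count filter (Igf2, adjusted p 0.000169), 2 in the estimated counts and 2 there with Gm49394 added to Igf2, a choice made after the data were seen. For the interaction it was 1, and 0 to 2 with 1 library left out. For the change in cKO cultures it was 4, and 2 without TMM factors and 2 to 4 with 1 library left out. The cause of these moves was not tested.

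Signs turned for effects near 0. In cartilage Phlda2 went from -0.04 to 0.016 without TMM factors and ran from -0.27 to 0.13 with 1 library left out, and Kcnq1ot1 from -0.28 to 0.073. The female minus male effect of Cdkn1c went from 0.02 to -0.021 without the filter. With 1 library left out it ran from -0.18 to 0.18 for Cdkn1c, from -0.12 to 0.28 for H19, from -0.27 to 0.61 for Kcnq1ot1 and from -0.24 to 0.71 for Phlda2. In those fits 1 sex and genotype keeps a lone library, which is assumed to vary like the others.

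Replicate numbers are shared between genotypes, but same-numbered libraries did not deviate together (r from -0.15 to 0.14 in the cultures, -0.08 to 0.18 in cartilage), so the numbers were not taken as pairs. With a replicate block the members called were 1 in cartilage (Igf2, adjusted p 0.0296) instead of 0, and 2 instead of 4 for the change in cKO cultures.

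Over all genes, calls at day 0 were 10023, and 6260 when all 14 cultures were fitted together. In cartilage they were 544, and 1044 without the filter, 357 by DESeq2 and 362 without cKO library 4. For the interaction they were 2509, and 1591 to 4051 with 1 library left out, and for the sexes 1, and up to 33. No listed gene that was called turned its direction without TMM factors or with RLE factors. Cartilage depth limited Slc22a18 and Ascl2, at 0 to 3 counts per library.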
